A study of Mus musculus with 2 samples.

Results

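The 6 genes described here belong to endocannabinoid signalling and were followed in single nuclei of the dynorphin lineage from the mouse dorsal spinal cord: the cannabinoid receptor gene Cnr1 and the enzyme genes Dagla, Daglb, Mgll, Napepld and Faah. They were chosen by name for their place in one pathway, and all 6 of them are among the 19575 genes of the deposited count table. Nuclei came from lumbar (L3-L5) dorsal cord of adult Pdyn-IRES-Cre(+/-); R26-LSL-Sun1.eGFP(+/-) mice of either sex and were sorted for the green nuclear-envelope reporter. The injured group had received an incision of the left plantar hindpaw at postnatal day 3. The naive group were littermates that had only been exposed to isoflurane at that age. All animals carried both alleles. Each group was 1 library made from the pooled nuclei of 8 mice, so the difference between groups has no replicate. Cre acts from the Pdyn locus, so the reporter can mark any cell that has used this promoter, including cells that no longer transcribe Pdyn.

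Endocannabinoids are lipid messengers that are made on demand in a postsynaptic neuron and travel back to the presynaptic terminal. Cnr1 encodes the CB1 receptor, which lowers transmitter release there through Gi/o proteins. Dagla and Daglb encode the diacylglycerol lipases that make 2-arachidonoylglycerol (2-AG), and Mgll encodes monoacylglycerol lipase, its main breakdown enzyme in brain. Napepld encodes a phospholipase D that makes anandamide and related N-acylethanolamines, and Faah encodes the hydrolase that degrades them. In the dorsal horn CB1 is a known target of spinal analgesia.

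The injured library held 3547 nuclei and 32934588 unique molecular identifiers (UMIs, each standing for 1 captured RNA molecule), and the naive library held 4063 nuclei and 30602222 UMIs. The median nucleus had 8464 UMIs in the injured library and 6955 in the naive library, a ratio of 1.22. Nuclei were clustered with the 6 genes and their pathway kept out of the variable genes, and clusters were named from markers. Inhibitory-like nuclei numbered 2246 in the injured library and 2654 in the naive library; excitatory-like nuclei numbered 818 in the injured library and 934 in the naive library. Gad2, the smaller GABA-synthesising enzyme, had a depth-normalised UMI count (CPM) of 167 in injured and 162 CPM in naive inhibitory-like nuclei, against 9.42 and 10.8 CPM in injured and naive excitatory-like nuclei. The vesicular glutamate transporter Slc17a6 had 3.39 and 4.49 CPM in injured and naive inhibitory-like nuclei, against 209 and 222 CPM in injured and naive excitatory-like nuclei. Gad2 and Slc17a6 were among the genes that set these classes, so their differences describe the naming and do not test it. UMIs of Xist and of Y-linked genes occurred together in 395 nuclei, which can mark doublets. Summed markers of astrocytes, mostly the glutamate transporter Slc1a2, had 46.7 and 50.7 CPM in injured and naive inhibitory-like nuclei and 32.1 and 34.8 CPM in injured and naive excitatory-like nuclei, and their part in the results was not tested. Another 336 injured and 271 naive nuclei carried mixed or too few markers and were left unnamed. Pdyn itself was low in all 4 sums, at 33.9 and 35.6 CPM in injured and naive inhibitory-like nuclei and 35.3 and 39.3 CPM in injured and naive excitatory-like nuclei. CPM throughout is a gene's UMIs summed over the nuclei of a class or cluster and scaled to the total UMIs of those nuclei; intervals are exact 95% Poisson intervals that cover counting error only.

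The promoters of the 3 genes with the largest differences between the neuron classes are given because those differences are the main result. Each line is the RefSeq sequence from 250 bases before to 50 bases after an annotated start (build GRCm38.p6), with any GC box, GGGCGG searched on both strands, in capitals. Cnr1 has 3 annotated starts and Mgll has a pair; the first of each is shown.
Cnr1 (chr4:33924014-33924313, plus strand): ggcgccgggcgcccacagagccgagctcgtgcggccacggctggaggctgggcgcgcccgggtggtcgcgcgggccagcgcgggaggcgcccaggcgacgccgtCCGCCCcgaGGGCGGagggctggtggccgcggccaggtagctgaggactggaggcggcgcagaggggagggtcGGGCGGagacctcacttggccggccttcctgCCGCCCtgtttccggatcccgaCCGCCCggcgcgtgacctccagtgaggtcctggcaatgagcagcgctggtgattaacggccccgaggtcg
Mgll (chr6:88724162-88724461, plus strand): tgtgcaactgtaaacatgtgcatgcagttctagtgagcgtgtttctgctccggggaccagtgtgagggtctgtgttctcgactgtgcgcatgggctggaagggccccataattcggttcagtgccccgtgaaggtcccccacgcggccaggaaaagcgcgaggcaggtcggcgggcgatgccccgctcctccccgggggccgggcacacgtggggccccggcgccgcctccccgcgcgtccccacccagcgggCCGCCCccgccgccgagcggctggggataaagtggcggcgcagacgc
Napepld (chr5:21701573-21701872, minus strand): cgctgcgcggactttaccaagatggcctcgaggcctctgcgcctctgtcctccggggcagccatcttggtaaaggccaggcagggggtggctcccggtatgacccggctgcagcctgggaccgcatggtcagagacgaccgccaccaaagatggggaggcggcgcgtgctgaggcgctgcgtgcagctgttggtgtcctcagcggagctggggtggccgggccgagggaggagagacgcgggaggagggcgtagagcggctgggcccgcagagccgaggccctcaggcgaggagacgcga
The Cnr1 window held 5 GC boxes and 40 CpG dinucleotides, with 76.3% G or C. The Mgll window held 1 GC box and 32 CpG dinucleotides (70.0% G or C), and the Napepld window held no GC box and 28 CpG dinucleotides (70.3% G or C). Among all 32851 promoter windows of the table, 35.7% held a GC box, and the median window had 7 CpG dinucleotides and 52.7% G or C. These 3 windows exceed the median promoter in CpG count and in share of G or C. The other Cnr1 windows held no GC box: the one at chr4:33924394-33924693 has 69.0% G or C and 33 CpG dinucleotides, and the one at chr4:33926130-33926429 has 46.3% and 5, below both medians. RefSeq windows were found for 5 of the 6 genes, and letters that match a motif do not show that a factor binds there.

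The receptor gene was several-fold higher in excitatory-like than in inhibitory-like nuclei of this lineage. Cnr1 (chr4:33924593-33948831, plus strand, build mm10) had 15.5 CPM (13.8 to 17.3) in injured and 16.2 CPM (14.4 to 18.1) in naive inhibitory-like nuclei, against 71.1 CPM (65.6 to 76.8) in injured and 81.4 CPM (75.4 to 87.7) in naive excitatory-like nuclei. The 2 inhibitory-like values lie far below the 2 excitatory-like values, with no overlap of intervals. The inhibitory-like over excitatory-like ratio was 0.218 (0.189 to 0.2504) in the injured library and 0.199 (0.173 to 0.228) in the naive library. In edgeR's quasi-likelihood test on the 4 sums, with library as a block, the log2 ratio was -2.24 (SE 0.07, Benjamini-Hochberg adjusted p = 1.19e-46). In that test 2787 of 15977 genes were called higher in inhibitory-like nuclei (17.4%) and 3232 were called lower (20.2%). Of the 6 genes, 3 were called higher (Mgll, Napepld and Dagla) and 2 lower (Cnr1 and Faah). With library as a block, the p-values rest on how far the class difference varied between these 2 pooled libraries. The variance estimate was shared over genes, and the spread between mice was not measured.

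The breakdown enzyme of 2-AG showed the opposite pattern. Mgll (chr6:88724412-88828360, plus strand) was the most counted of the 6 genes, with 125.8 CPM in injured and 134.4 CPM in naive inhibitory-like nuclei, against 49.0 CPM in injured and 52.6 CPM in naive excitatory-like nuclei. The ratio was 2.56 (2.31 to 2.85) in the injured and 2.55 (2.31 to 2.83) in the naive library. The test gave a log2 ratio of 1.38 (SE 0.06, edgeR adjusted p = 1.84e-39). An antisense transcript, Gm26588, overlaps Mgll and is also in the table, and the sources used here do not say how the counting treated strand.

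The enzymes that make 2-AG were nearly level across the classes. Dagla (chr19:10245265-10304877, minus strand) had 37.1 and 39.9 CPM in injured and naive inhibitory-like nuclei, against 32.0 and 36.8 CPM in injured and naive excitatory-like nuclei (log2 ratio 0.19, SE 0.08, edgeR adjusted p = 0.0437). That call was lost with DESeq2, without the library block, with nuclei classed by their own transmitter genes and with coarser clusters, and the sign turned (-0.020) after thinning nuclei to 3000 UMIs. Daglb (chr5:143464584-143505942, plus strand) had 26.2 and 30.6 CPM in injured and naive inhibitory-like nuclei, against 25.5 and 31.0 CPM in injured and naive excitatory-like nuclei. Its log2 ratio was 0.03 (SE 0.09, edgeR adjusted p = 0.838), and in each library the interval of the ratio included 1 (0.873 to 1.20 in injured, 0.849 to 1.14 in naive). After thinning to 3000 UMIs the log2 ratio of Daglb was -0.16 (edgeR adjusted p = 0.438). The end of Daglb overlaps Rac1 on the other strand, so reads of the pair may not be fully separable.

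The anandamide enzymes differed in opposite directions. Napepld (chr5:21662901-21701396, minus strand), the synthetic enzyme, had 72.2 and 85.3 CPM in injured and naive inhibitory-like nuclei, against 31.6 and 35.1 CPM in injured and naive excitatory-like nuclei. The ratio was 2.29 in the injured library and 2.43 in the naive library (log2 ratio 1.26, SE 0.07, edgeR adjusted p = 2.08e-31). Faah (chr4:115967145-116017926, minus strand), the hydrolase, had 22.8 and 24.8 CPM in injured and naive inhibitory-like nuclei, against 31.6 and 33.0 CPM in injured and naive excitatory-like nuclei. Its log2 ratio was -0.42 (SE 0.09, edgeR adjusted p = 2.65e-05), a call that DESeq2 did not make (-0.40, adjusted p = 0.183). Inhibitory-like nuclei thus had more of the enzyme gene that makes anandamide and less of the one that degrades it, and for 2-AG they had more of the degrading enzyme gene.

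**Figure D1:**
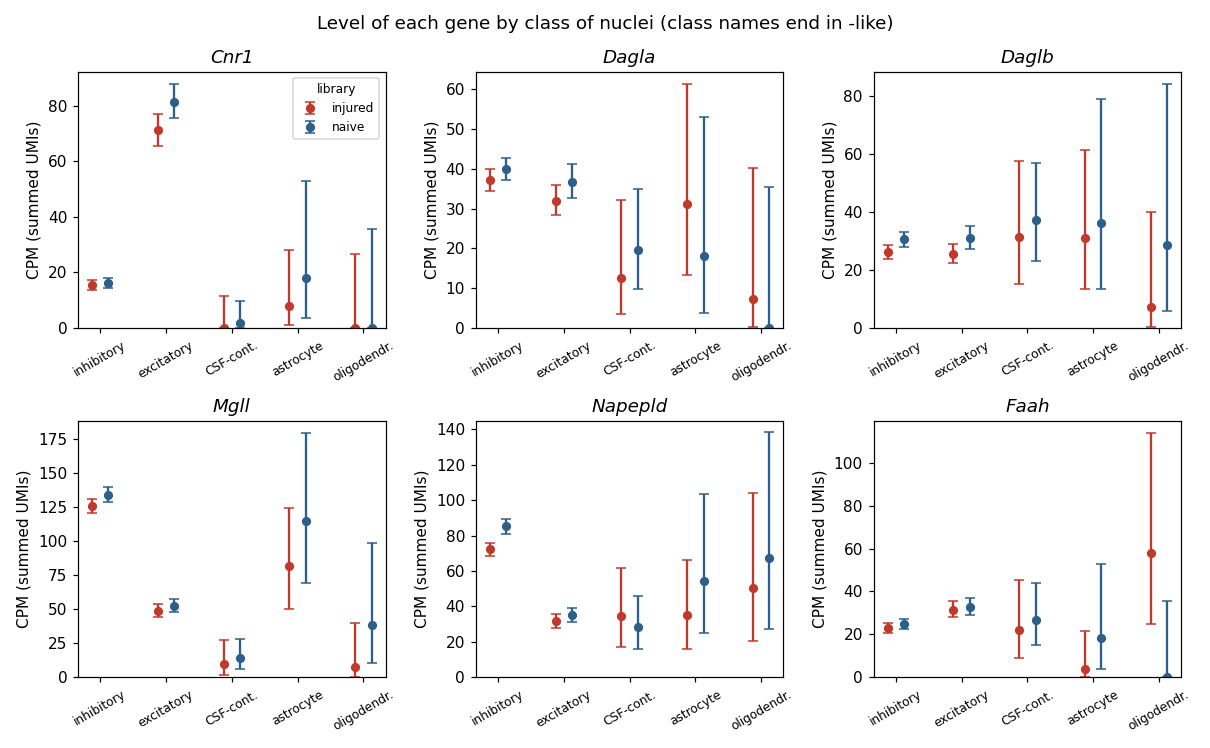
CPM of each gene (vertical axes, from 0) in 5 classes of nuclei, injured library in red and naive library in blue, with exact 95% Poisson intervals. Cnr1 stands at 71.1 and 81.4 CPM in excitatory-like nuclei and at 15.5 and 16.2 CPM in inhibitory-like nuclei, while Mgll and Napepld are higher in inhibitory-like nuclei; the 3 small classes have wide intervals.

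Levels of different genes were also scaled per length, taken here as the annotated span with introns. The sources do not say whether intronic reads were counted, so it is not known whether this scaling suits UMI counts. Per kilobase of span, the order in excitatory-like nuclei was led by Cnr1, with 2.93 CPM per kilobase in the injured and 3.36 in the naive library, and Napepld followed with 0.820 and 0.912. Faah, Daglb, Dagla and Mgll then lay between 0.472 and 0.751 CPM per kilobase in the 2 libraries, and the intervals of neighbours in that order overlapped. In inhibitory-like nuclei Napepld led with 1.88 in the injured and 2.22 CPM per kilobase in the naive library, and Mgll followed with 1.21 and 1.29. Cnr1, Daglb and Dagla were alike there, between 0.622 and 0.739 CPM per kilobase, and Faah was lowest with 0.449 in the injured and 0.488 in the naive library, its interval apart from theirs. In excitatory-like nuclei Mgll, second to Cnr1 by UMIs (432 against 626 in the injured and 439 against 679 in the naive library), was thus last per kilobase. The order of the genes therefore depends on the scaling by span.

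The share of nuclei with at least 1 UMI also differed between the classes. A Cnr1 UMI was seen in 10.2% of injured and 9.16% of naive inhibitory-like nuclei, against 47.1% of injured and 47.5% of naive excitatory-like nuclei. Excitatory-like nuclei were also deeper, with median UMIs of 9957 and 8114 in the injured and naive libraries, against 7883 and 6713 in injured and naive inhibitory-like nuclei. With every nucleus thinned to 3000 UMIs, the Cnr1 shares were 4.88% and 4.76% in injured and naive inhibitory-like nuclei, against 18.4% and 21.01% in injured and naive excitatory-like nuclei. Most positive inhibitory-like nuclei held a single Cnr1 molecule, 179 of the 230 positive nuclei in the injured library. Oligodendrocyte-like nuclei were taken to lack Cnr1 of their own, an assumption that was not tested. They had no Cnr1 UMI in 45 injured and 42 naive nuclei. That allows shares of up to 6.67% and 7.14%, at median depths of 2593 and 2146.5 UMIs. The thinned Cnr1 shares of inhibitory-like nuclei lie below those limits. Within a single library, oligodendrocyte-like nuclei were thus too few to set these shares apart from free RNA, and the 2 libraries were not pooled for this limit. In the CSF-contacting-like class (cerebrospinal fluid-contacting neurons), 0 of 48 injured nuclei and 1 of 106 naive nuclei (0.943%) held a Cnr1 UMI, at median depths of 5866.5 and 4820.5 UMIs. Mgll was detected in 58.4% of injured and 55.5% of naive inhibitory-like nuclei, against 34.0% and 32.0% of injured and naive excitatory-like nuclei, and thinning left 29.7% and 31.6% against 13.0% and 13.8%.

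**Figure D2:**
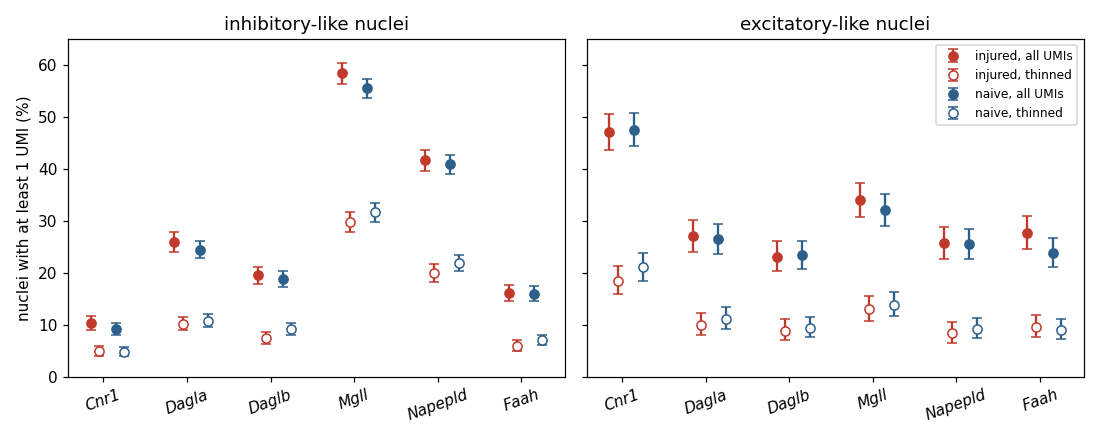
Percent of nuclei with at least 1 UMI of each gene, in inhibitory-like (left) and excitatory-like nuclei (right), injured in red and naive in blue, with exact Clopper-Pearson 95% intervals; open symbols are after thinning to 3000 UMIs. The Cnr1 share is near 10% in inhibitory-like and near 47% in excitatory-like nuclei before thinning, and the classes stay apart after it.

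The class average covered a small set of inhibitory clusters with receptor levels of the excitatory kind. Across 22 neuron clusters with at least 30 nuclei in both libraries (12 inhibitory-like, 9 excitatory-like and 1 CSF-contacting-like), the Cnr1 level in the 9 excitatory-like clusters ran between 29.4 and 142 CPM in the injured library and between 59.3 and 155 CPM in the naive library. In 10 of the 12 inhibitory-like clusters it ran between 2.64 and 16.5 CPM in the injured and between 2.81 and 23.9 CPM in the naive library, below every excitatory-like cluster of the same library. The other two were clusters 9 and 2a. Cluster 9, led by Gm28822, Mgmt, Cdh3, Id2 and Nppc (the precursor of C-type natriuretic peptide), had 84.1 CPM (67.6 to 104) in the injured and 80.1 CPM (62.7 to 101) in the naive library. Cluster 2a, led by Fign and Dlk1, had 51.6 CPM (35.3 to 72.9) in the injured and 78.8 CPM (50.5 to 117) in the naive library. Together these clusters held 7.84% of the inhibitory-like nuclei but 40.7% of their Cnr1 UMIs in the injured library, and 6.25% of the nuclei but 31.4% of the UMIs in the naive library. Without them, a setting chosen after seeing the data, Cnr1 in the remaining inhibitory-like nuclei was 10.0 CPM in the injured and 11.9 CPM in the naive library, and the log2 ratio to excitatory-like nuclei was -2.82 and -2.78. Cluster 2a came from splitting a mixed cluster and held only 47 injured and 34 naive nuclei. Among the 7 inhibitory-like clusters below the minimum of nuclei, cluster 2e, with 19 injured and 27 naive nuclei, had 46.9 CPM of Cnr1 (20.3 to 92.5) in the injured and 133 CPM (86.7 to 194) in the naive library, so clusters 9 and 2a are not all the inhibitory-like nuclei with much Cnr1.

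Cluster 9 also carried the highest level of the enzyme that breaks down 2-AG among the 22 clusters. Its Mgll level was 231 CPM (203 to 262) in the injured and 247 CPM (216 to 282) in the naive library, and the next cluster, 3, had 161 and 168 CPM; this was the only pair of neighbours in the Mgll order whose intervals were apart in both libraries. Cluster 2a was at the other end of the 12 inhibitory-like clusters, with 48.4 CPM of Mgll in the injured and 29.5 CPM in the naive library. That is a level of excitatory-like clusters. Inhibitory-like clusters below the minimum of nuclei also had low Mgll, on few UMIs. They ran from 20.3 (2m) to 56.9 CPM (2f) in the injured and from 9.52 (2m) to 52.2 CPM (2l) in the naive library. Cluster 9 thus joined a receptor level of the excitatory kind to the inhibitory maximum of Mgll. Its Nppc level was 86.0 and 109 CPM in the injured and naive libraries, and its Pdyn level was 16.1 and 22.3 CPM.

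**Figure D3:**
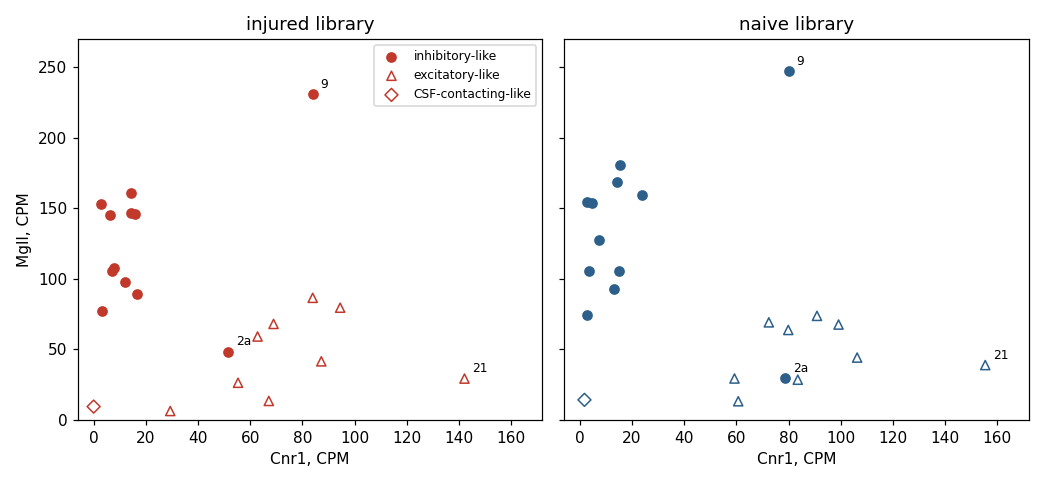
Mgll level (vertical axis, CPM) against Cnr1 level (horizontal axis, CPM) in 22 neuron clusters, injured library on the left and naive library on the right; filled circles are inhibitory-like clusters, triangles excitatory-like clusters and the diamond the CSF-contacting-like cluster. Inhibitory-like clusters line up at low Cnr1 except clusters 9 and 2a, and cluster 9 stands alone with high levels of both genes.

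Among the excitatory-like clusters the receptor gene was most abundant in cluster 21, led by Skor2 and Rxfp1, with 142 CPM (110 to 180) in the injured and 155 CPM (117 to 202) in the naive library. Tac1, the precursor of substance P, was among its leading genes. Cluster 17, which holds Tacr1, the substance P receptor gene, among its leading genes, followed with 94.5 and 99.2 CPM, and cluster 19, led by Esr1 and Th, had 87.3 and 106 CPM in the injured and naive libraries. The lowest were cluster 7, rich in the enkephalin precursor Penk (227 and 442 CPM in the injured and naive libraries), with 55.4 and 59.3 CPM of Cnr1, and cluster 23, with 29.4 and 60.7 CPM. No neighbours in the Cnr1 order of all 22 clusters had intervals apart in both libraries. Spearman's rho between the libraries across the 22 clusters was 0.963 for Cnr1, 0.975 for Mgll and 0.927 for Napepld. It was 0.682 for Faah, 0.657 for Dagla and -0.02 for Daglb, whose cluster order was therefore not shared at this depth (7 to 96 UMIs a cluster). These values describe clusters that share 2 libraries and are not replicates.

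The CSF-contacting-like cluster 18 was nearly without the receptor gene, with 0 UMIs in 48 injured nuclei and 1 UMI in 106 naive nuclei (up to 11.6 and 9.89 CPM at the upper limit). These neurons, which border the central canal and are marked by Pkd2l1, also had little Mgll, 9.42 CPM in the injured and 14.2 CPM in the naive library. Their Daglb level, 31.4 and 37.3 CPM, was similar to that of the other classes.

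The anandamide genes picked out other inhibitory clusters. Among the 22 clusters, Napepld was highest in cluster 13, led by Atp10a and Rasgrp4, with 153 CPM (129 to 180) in the injured and 218 CPM (191 to 248) in the naive library. Its next neighbour, cluster 5, had 93.1 and 111 CPM, and the pair was apart in both libraries. Cluster 12, led by Pax5 and Rxfp2 and the richest of these in Npy (76.6 and 85.2 CPM in the injured and naive libraries), had the lowest Napepld of the 12 inhibitory-like clusters, 11.4 CPM in the injured and 26.9 CPM in the naive library. Of the 12 inhibitory-like clusters with enough nuclei, Faah was lowest in clusters 3 and 5, with 3.02 and 5.78 CPM in the injured library and 5.14 and 7.07 CPM in the naive library. Among those 12, these clusters had the highest galanin (Gal) levels, 291 and 267 CPM in the injured library and 446 and 342 CPM in the naive library. Cluster 3 also had the highest Pdyn level of the 12, 84.6 and 95.1 CPM in the injured and naive libraries. The smaller inhibitory-like cluster 26, led by Cartpt and with 29 injured and 14 naive nuclei, had more Pdyn (514 and 366 CPM) and more Gal (453 and 788 CPM) in the injured and naive libraries. It held 0 Faah UMIs in both, which leaves upper limits of 17.4 CPM in the injured and 41.0 CPM in the naive library. Faah in inhibitory-like cluster 16, led by Nos1, was 49.6 and 40.5 CPM in the injured and naive libraries, so the range within the inhibitory class exceeded the difference between the classes.

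**Figure D4:**
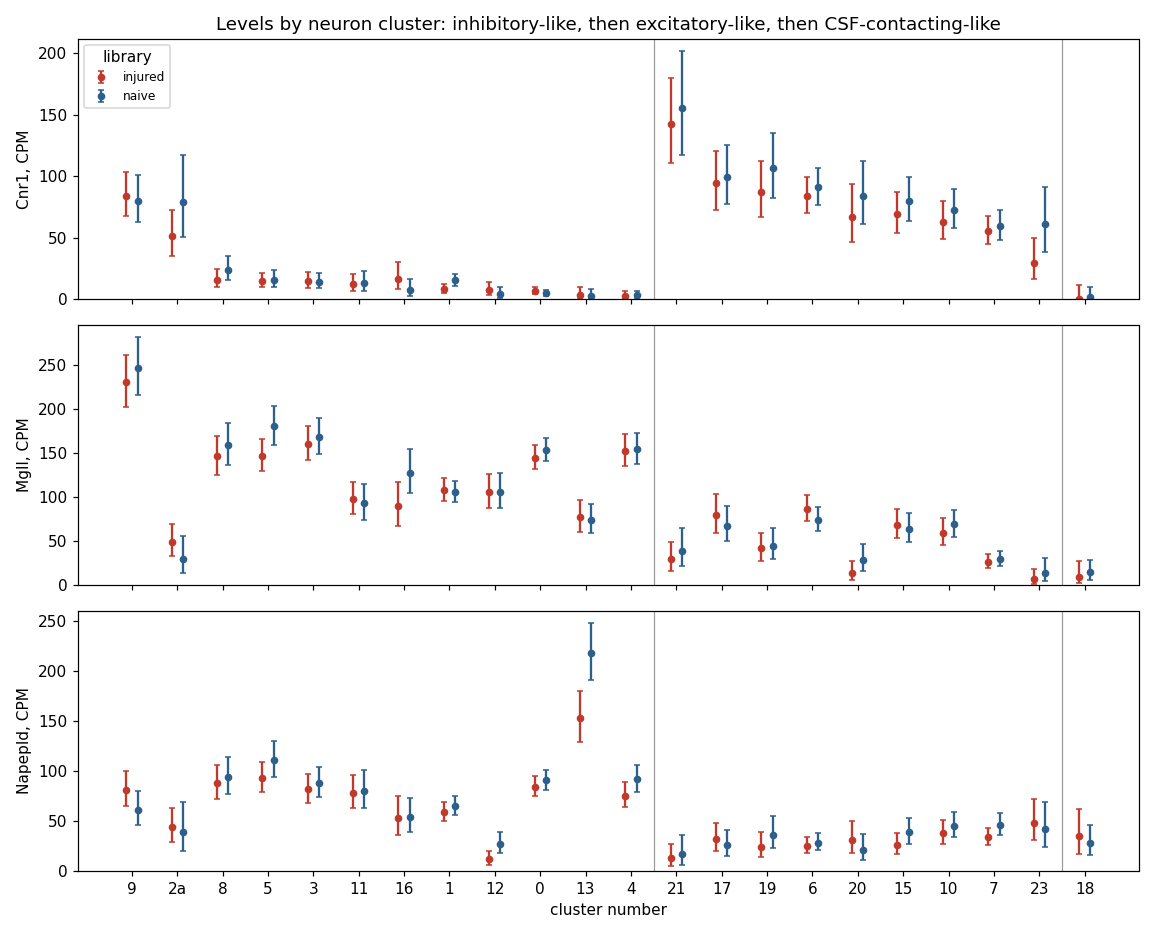
Cnr1, Mgll and Napepld levels (CPM, with exact 95% Poisson intervals) in each of the 22 neuron clusters with at least 30 nuclei in both libraries, injured in red and naive in blue; vertical lines part inhibitory-like, excitatory-like and CSF-contacting-like clusters, ordered within a class by Cnr1. Clusters 9 and 2a stand out from the other inhibitory-like clusters for Cnr1, cluster 9 for Mgll and cluster 13 for Napepld.

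Peptide genes gave a view of single nuclei within a class; these peptides and the minimum of 2 UMIs were chosen after seeing the data. In inhibitory-like nuclei with at least 2 Gal UMIs, Cnr1 had 9.94 CPM (7.25 to 13.3) in the injured and 9.78 CPM (7.39 to 12.7) in the naive library, against 17.2 and 19.0 CPM in the remaining inhibitory-like nuclei of the injured and naive libraries. The intervals of these groups did not overlap in either library. Clusters 9 and 2a, which have little Gal, held many of the Cnr1 UMIs of the rest: without them, a setting added after seeing the data, Cnr1 had 9.51 CPM (6.88 to 12.8) in injured and 9.81 CPM (7.41 to 12.7) in naive nuclei with Gal, against 10.2 CPM (8.57 to 12.1) in injured and 12.8 CPM (10.9 to 15.03) in naive nuclei of the rest, with overlapping intervals. Excitatory-like nuclei with at least 2 Pdyn UMIs had 81.1 CPM (62.4 to 104) of Cnr1 in the injured and 79.9 CPM (58.9 to 106) in the naive library, against 70.1 and 81.5 CPM in the remaining excitatory-like nuclei of the injured and naive libraries, with overlapping intervals. Inhibitory-like nuclei with at least 2 Pdyn UMIs had 9.68 CPM (4.18 to 19.1) in the injured and 10.9 CPM (4.71 to 21.5) in the naive library, on 8 UMIs each. Excitatory-like nuclei with at least 2 Tac1 UMIs had 73.9 and 114 CPM of Cnr1 in the injured and naive libraries, against 70.7 and 76.4 CPM in the remaining nuclei; the intervals were apart in the naive library only.

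For each gene the 5 genes with the most similar levels across the 22 clusters were found by the lower of the libraries' Pearson r of log2(CPM + 1), among 7276 genes with at least 1000 UMIs. For Cnr1 they were Olfm3 (r = 0.86 in the injured and 0.88 in the naive library), Rapgef4, Gas2, Gphn (gephyrin, the scaffold of inhibitory synapses) and Pag1. For Mgll they were Fam163b (0.88 and 0.84), Nyap2, Grm5, Dclk3 and Mboat2, and for Napepld 1500009L16Rik (0.81 and 0.83), Shisa8, Cabp1, Sall3 and Rab38. Faah was closest to Frmpd3 (0.89 and 0.86), followed by Ptpn5, A330015K06Rik, Cntn1 and Greb1l. Dagla was closest to Nhsl2 (0.67 and 0.68), Magi1, Gm1992, Rnf152 and Rapgefl1. Daglb had weaker likeness to any gene, with R3hcc1l first (0.49 and 0.64) and then Akr1a1, Upf3b, Pggt1b and Tpi1. Among the 6 genes themselves, Cnr1 and Napepld ran in opposite directions across clusters (r = -0.44 in the injured and -0.55 in the naive library), and Cnr1 and Mgll were only weakly related (-0.09 and -0.29). The clusters share library and depth, so these coefficients are descriptions.

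The neighbourhood of the pathway was examined in a list of 36 further genes, 34 of which are in the table. In the class test 29 of them were tested: 6 were higher in inhibitory-like nuclei, 5 lower, with a median log2 ratio of -0.01, against 17.4% and 20.2% of all genes and an all-gene median of 0.00. The largest differences lay in the machinery that yields diacylglycerol, the substrate for 2-AG. Grm5, the metabotropic glutamate receptor mGluR5, had 4240 and 3990 CPM in injured and naive inhibitory-like nuclei, against 2049 and 2010 CPM in injured and naive excitatory-like nuclei (log2 ratio 1.04, SE 0.03, edgeR adjusted p = 5.80e-50). Plcb1, a phospholipase C that acts downstream of this receptor, was higher (log2 ratio 1.45), as was Plcb4 (0.72). The muscarinic receptor Chrm3 was lower (-0.53), as was Pla2g4e, an N-acyltransferase on the anandamide route (-0.64). Of the proteins that bind the CB1 tail, Cnrip1 had 103 CPM in injured and 103 CPM in naive inhibitory-like nuclei, against 104 and 102 CPM in injured and naive excitatory-like nuclei (log2 ratio 0.02, SE 0.05, edgeR adjusted p = 0.789), and the log2 ratio of Sgip1 was 0.04 (SE 0.04, adjusted p = 0.388). The other 2-AG hydrolase Abhd6 had a log2 ratio of -0.01 (SE 0.07).

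Levels of these genes differed little between the adult libraries of injured and naive mice. In inhibitory-like nuclei the injured over naive CPM ratio, with an exact conditional binomial 95% interval for counting error, was 0.956 (0.812 to 1.13) for Cnr1, 0.930 (0.839 to 1.03) for Dagla and 0.856 (0.758 to 0.966) for Daglb. It was 0.936 (0.885 to 0.990) for Mgll, 0.847 (0.787 to 0.910) for Napepld and 0.920 (0.806 to 1.05) for Faah. Napepld had 1386 UMIs in the injured and 1613 UMIs in the naive library there. In excitatory-like nuclei the ratio was 0.873 (0.782 to 0.975) for Cnr1, 0.870 (0.737 to 1.03) for Dagla and 0.823 (0.685 to 0.987) for Daglb. It was 0.932 (0.814 to 1.07) for Mgll, 0.899 (0.760 to 1.06) for Napepld and 0.957 (0.807 to 1.14) for Faah.

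With sums scaled by class totals, the ratio was below 1 for 6 of 6 genes in both classes, but under median-ratio and TMM scaling and after thinning Cnr1 in inhibitory-like nuclei and Faah in excitatory-like nuclei came out above 1, as did Cnr1 in inhibitory-like nuclei against genes of like length and Faah there in nuclei with Y-linked UMIs only. Most genes lay below 1: 69.4% of 12856 genes in inhibitory-like nuclei and 66.3% of 11170 genes in excitatory-like nuclei, with a median log2 ratio of -0.08 in each class. The median over the 6 genes was -0.11 in inhibitory-like and -0.18 in excitatory-like nuclei, inside the range from the 5th to the 95th percentile of all genes (-0.46 to 0.21 and -0.48 to 0.21). None of the 6 passed the fold used here, a ratio of 0.8 or less or its inverse or more, in either class. In inhibitory-like nuclei 2.16% of genes were higher and 12.5% lower by that fold, and in excitatory-like nuclei 1.82% were higher and 13.6% lower. With median-ratio scaling these shares were 3.84% higher and 7.26% lower in inhibitory-like and 3.68% higher and 8.31% lower in excitatory-like nuclei. With 1 library in each group no test of injury was possible, and whether any of these ratios exceeds the spread between mice is unknown. The injured library was also the deeper one.

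**Figure D5:**
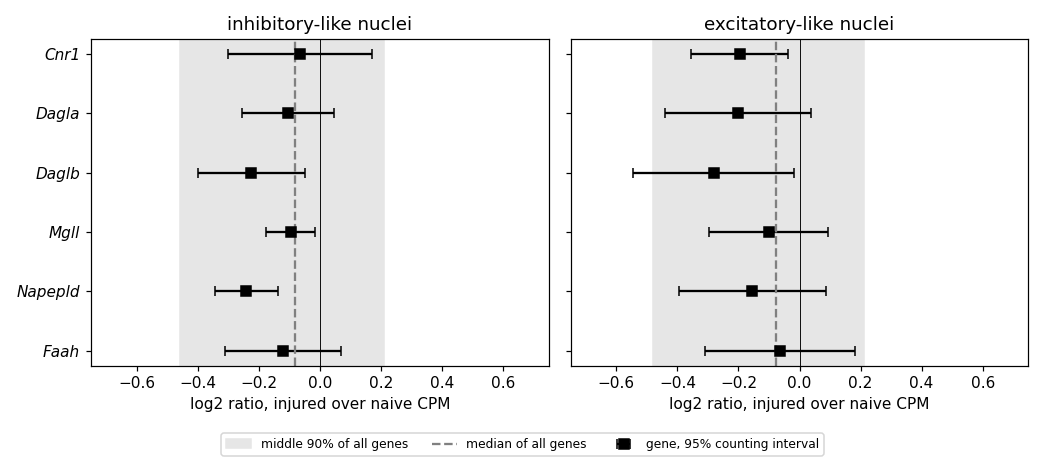
Log2 ratio of injured over naive CPM for each gene in inhibitory-like (left) and excitatory-like nuclei (right), with 95% counting intervals; the grey band spans the 5th to 95th percentile of all genes and the dashed line is their median. All ratios lie below 0 and inside the band with class-total scaling; median-ratio, TMM and thinned values put Cnr1 (inhibitory-like) and Faah (excitatory-like) above 0, as do like-length genes for Cnr1 and nuclei with Y-linked UMIs for Faah in inhibitory-like nuclei.

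Levels within clusters were compared between the 2 libraries too. Of 132 pairs of gene and cluster, the intervals of the injured and naive levels were apart in 1, Napepld in cluster 13 (153 CPM in injured and 218 CPM in naive nuclei, from 89 and 122 nuclei). The share of such pairs over all genes is not given here, and clusters with few UMIs have wide intervals. With that many pairs the count is a description and does not show that the libraries were close. The single libraries give it no replicate. Of the wider list, 25 genes had at least 100 UMIs in inhibitory-like nuclei, and 2 were higher and 2 lower by the fold, with a median log2 ratio of -0.07. The higher ones were Ptpn22 (ratio 1.41, 1.02 to 1.95) and Chrm3 (1.27, 1.22 to 1.32), and the lower ones were Gde1 (0.776, 0.714 to 0.843), a phosphodiesterase on another anandamide route, and the Gi subunit gene Gnai2 (0.779, 0.679 to 0.893). In excitatory-like nuclei 24 genes had that many UMIs, with a median of 0.00, against -0.08 over all genes. Of the 24, 1 was higher and 3 were lower, against 1.82% and 13.6% of all genes. Ptpn22 was higher (1.68, 1.10 to 2.61), and Gde1 (0.707, 0.616 to 0.811), Gnai2 (0.763, 0.626 to 0.930) and Fabp5 (0.578, 0.449 to 0.741), a carrier of lipids including anandamide, were lower. With median-ratio or TMM scaling, added after seeing the data, Gde1 in inhibitory-like nuclei and Gnai2 in both classes were within the fold. That left 0 lower genes of the list in inhibitory-like and 2 (Gde1 and Fabp5) in excitatory-like nuclei. Over all genes, 7.26% (median-ratio) and 7.46% (TMM) were lower in inhibitory-like nuclei, and 8.31% and 8.85% in excitatory-like nuclei. Other known receptors for related lipids were scarce: Cnr2, the gene of the CB2 receptor, had 2 UMIs in injured and 5 UMIs in naive inhibitory-like nuclei, and 4 in injured and 3 in naive excitatory-like nuclei.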

How the data were processed

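Per the submitters' processing notes, Cell Ranger 3.0.2 and Seurat were used with build mm10; the sources do not say whether intronic reads were counted or strand used. The authors deposited 1 table of raw UMI counts and, for each library, a table of natural log values, which equal ln(1 + 10000 × count / nucleus total) to within 6e-15. The headers of the log-value tables gave each nucleus its library; 3 barcode sequences occur in both.

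Nuclei were clustered with scanpy 1.11.5 (2000 variable genes, 30 components, Leiden resolution 1); mixed clusters of at least 100 nuclei were split once more. Clusters were named from marker lists, with thresholds set after seeing the data. Scrublet called 0.197% of injured and 2.61% of naive nuclei, so it did not work in the injured library and doublets were kept. Raw counts were summed per library and class and tested with edgeR 4.0.16 (TMM, quasi-likelihood, library as block because both classes of a library come from the same mice, Benjamini-Hochberg over 15977 genes). Each SE given with a log2 ratio is the ratio's absolute value divided by the square root of the test's F statistic. Injured and naive sums were compared by ratio only, with 100 UMIs as the minimum for all-gene shares. DESeq2 1.42.0 and other scalings, classes, depths and clusterings were alternatives. For 0 counts, the shares allowed in oligodendrocyte-like nuclei and the minimum for signal in glia-like nuclei took 3 counts. CPM limits from 0 counts are upper ends of the exact Poisson intervals. Intervals and these limits cover counting error only. Genes were named by rule: all 6, the list's extremes or genes with at least 1000 UMIs, and the 5 most alike; Cnr2, and Gnai2 in excitatory-like nuclei, were named after their values were seen. The 6 genes and the lists were chosen with earlier results of these data known. The class test was also run on simulated counts. These had no library effect and more scatter than the data, so that run does not vouch for the p-values here. A gene of the wider list is not reported here.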

Additional observations from a re-analysis of the deposited data

Results flagged for a closer look

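Signal of some of the 6 genes was also seen in glia-like nuclei, which none of the comparisons used, above the 3 UMIs that a count of 0 allows in each library. In astrocyte-like nuclei (47 injured, 54 naive), which also carry ependymal markers, Mgll had 81.7 CPM in the injured and 114.9 CPM in the naive library, from 21 and 19 UMIs. Daglb had 31.1 and 36.3 CPM there in the injured and naive libraries, and Napepld had 35.0 and 54.4 CPM. In oligodendrocyte-like nuclei (45 injured, 42 naive), Napepld had 50.5 CPM in the injured and 67.2 CPM in the naive library, from 7 UMIs each. The neuron genes Snap25, Rbfox3, Syt1 and Map2 together had 1890 and 925 CPM in injured and naive astrocyte-like nuclei and 188 and 231 CPM in injured and naive oligodendrocyte-like nuclei; their part in these levels was not tested.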

How the results depend on the processing

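The class differences of Mgll and Napepld kept their direction in every alternative run and their call in each that had a test, with log2 ratios between 1.30 and 1.45 and between 1.14 and 1.47, and Cnr1 likewise between -1.95 and -2.33 (-2.82 and -2.78 in single libraries without clusters 9 and 2a). DESeq2 called 3 of the 6 genes in place of 5 and 2386 genes in all, against 6019. Leaving out the replicate block, that is the pairing of classes by library, gave 4 calls among the 6 genes and 3559 over all genes, and ended that of Dagla (0.19, adjusted p = 0.184); it ended no other call among the 6. DESeq2 did not call Faah. Dagla also missed the threshold with DESeq2 (0.20, adjusted p = 0.682), with nuclei classed by their own transmitter genes (0.19, 0.0645) and with Leiden resolution 0.5 (0.17, 0.0789), and its sign reversed after thinning (-0.020, 0.936), which gave 3873 calls over all genes and moved Daglb to -0.16 (0.438). For injured over naive, none of the 6 genes passed the fold in most alternatives; with only nuclei that had Y-linked UMIs, 1 gene passed it in inhibitory-like and 2 in excitatory-like nuclei, and with nuclei classed by their own transmitter genes 1 passed it in excitatory-like nuclei. The shares of all genes past the fold under these 2 settings are not given here, so these counts cannot be set beside a background. Their cause was not tested. With a minimum of 20 UMIs in place of 100, the genes past the fold were 6.39% higher and 16.0% lower in inhibitory-like and 5.79% higher and 18.8% lower in excitatory-like nuclei; with a minimum of 1 UMI they were 11.9% and 20.3%, and 13.6% and 24.4%. Of 48 shares of nuclei recomputed, 26 moved by more than their counting interval. Leaving out a replicate was not possible with 1 library in each group, and counts of 1689 to 6243 UMIs a gene limit what single clusters can show.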
